A study of Mus musculus with 11 samples.

Results

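The circadian clock is a daily timer that runs inside most cells, and 10 of its genes were followed here through RNA sequencing of mouse mammary glands. The genes were taken by name: Arntl (also called Bmal1), Clock, Per1, Per2, Per3, Cry1, Cry2, Nr1d1, Nr1d2 and Dbp. All 10 were found among the 22196 genes of the tables, and all 10 were among the 12716 genes abundant enough to test. The 11 libraries came from inguinal mammary glands of mice on a normal chow diet, taken 16 days after delivery (postnatal day label PND16.5). Every mouse was Tsc1-fl/fl, that is, both Tsc1 copies could be cut by the recombinase Cre. In the 6 Knockout libraries the genotype added Adipoq-Cre-Tg/+, a transgene that makes Cre under control of the adiponectin gene, which is active in fat cells. The 5 Wild-Type libraries were Adipoq-Cre-+/+, without it. Tsc1 restrains the growth-regulating kinase complex mTORC1. Whole glands were sequenced, so cells in which this Cre is not active are part of every library. No time of day at which glands were collected is given in the labels.

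In the clock, the proteins of Arntl and Clock (or of Npas2, which can replace Clock) pair up and switch on genes that carry E-box sequences. Among those genes are the Per and Cry genes, whose proteins then block the pair, and Nr1d1 and Nr1d2, which encode the REV-ERB receptors that repress Arntl. Dbp encodes a transcription factor that acts through D-box sequences and drives many output genes. Because of these loops, Arntl and Npas2 transcripts peak at about the opposite time of day to those of Nr1d1, Dbp and Per3 in most mouse tissues. Transcripts of Clock itself change little over the day in many tissues.

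E-box, D-box and receptor letters were looked for in the members' own promoters. RefSeq promoter sequences (GRCm38.p6) were held for 9 of the 10 genes, with 13 start sites, and the 250 bases before each start were searched on both strands. The E-box CACGTG, the variant E-box CACGTT, the D-box forms TTATGTAA and TTACGTAA, and the receptor half-sites TAGGTCA and TGGGTCA were looked for. A match was found in 5 genes, and 6 windows around matches are printed to show these letters in place, 5′ to 3′ on the gene's strand with the match in capitals. Where the capitals read AACGTG, the variant E-box lies on the other strand.
Cry1, chr10:85185085-85185138, minus strand, E-box: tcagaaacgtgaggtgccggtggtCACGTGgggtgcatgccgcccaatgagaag
Per1, chr11:69098759-69098812, plus strand, E-box: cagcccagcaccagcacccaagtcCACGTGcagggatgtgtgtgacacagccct
Nr1d1, chr11:98775378-98775429, minus strand, variant E-box: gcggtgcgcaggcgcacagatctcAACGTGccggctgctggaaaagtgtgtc
Cry2, chr2:92434206-92434259, minus strand, variant E-box: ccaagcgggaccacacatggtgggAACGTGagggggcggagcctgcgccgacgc
Per3, chr4:151044839-151044894, minus strand, D-box: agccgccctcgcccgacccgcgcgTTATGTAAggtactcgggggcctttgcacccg
Per3, chr4:151044792-151044847, minus strand, D-box: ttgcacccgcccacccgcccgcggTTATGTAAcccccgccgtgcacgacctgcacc

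Per3 carried the D-box TTATGTAA at 2 places, 205 to 198 and 158 to 151 bases before its start. Of all 32851 promoters in the table, 0.819% held these letters in the same stretch. An E-box was found in Cry1, 60 to 55 bases before the start, and at 1 of the 2 start sites of Per1, against 6.02% of all promoters. The variant E-box was found in Nr1d1, Cry2 and, at 79 to 74 bases before the start, also Cry1, against 3.85% of all promoters. The windows of Cry1, Cry2, Nr1d1 and Per3 lie before the annotated genes, and that of Per1 lies inside the annotated Per1 gene. Neither receptor half-site, held by 2.23% and 3.24% of promoters, nor TTACGTAA, held by 0.113%, was found in these stretches, and Arntl, Clock, Dbp and Nr1d2 held none of the 6 motifs there. A match in letters is a description of the sequence and not a measured binding site.

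Between 25817975 and 37894237 estimated reads were assigned per library. Milk protein genes dominated, as the 6 markers of secretory epithelium together held 340110 to 477042 CPM (counts relative to the scaled total of the library) among Knockouts against 422055 to 593473 CPM among Wild-Types. The 10 adipocyte markers summed to 1450 to 1943 CPM and 1043 to 1479 CPM, so transcripts of fat cells were present in all libraries. For Tsc1 the Knockout mean was 10.1 ± 1.33 CPM (SD, n = 6) and the Wild-Type mean 10.7 ± 1.11 CPM (SD, n = 5), with a log2 difference of -0.09 ± 0.11 (SE; edgeR adjusted p = 0.772). This sum over the whole gene and the whole gland does not separate the floxed exons or the fat cells, so it is no check of the labels. In whole tissue, fewer cells of a type and less RNA per cell cannot be told apart.

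Per unit of transcript length, the clock genes spanned a wide range. In median TPM (a share of transcripts that corrects for length, here the coding length) over the 11 libraries the order was Per1 at 17.5, Nr1d1 at 6.36, Arntl at 4.76, Nr1d2 at 4.00 and Dbp at 2.57. It continued with Cry1 at 1.47, Cry2 at 0.789, Clock at 0.506, Per3 at 0.341 and Per2 at 0.251 TPM. Per1 had the higher TPM in 11 of 11 libraries when set against Nr1d1, and Dbp in 10 of 11 when set against Cry1. The ranges of each gene and the next in this order overlapped, and Nr1d2 was above Dbp in only 6 of 11 libraries.

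Of the 10 clock genes, 0 differed between genotypes past an adjusted p-value of 0.05 in edgeR, where 0.055% of all genes tested did. The smallest adjusted p-value among them was 0.313. At an unadjusted p-value under 0.05 there were 2, Clock and Per1, against 12.4% of all genes. DESeq2, at an adjusted 0.05, called 0 of the 10 and 146 of the 17497 genes with reads. The Knockout and Wild-Type ranges overlapped in all 10 genes, while 1.32% of all genes tested had ranges that did not. Fold changes pointed up for 6 and down for 4 members, with a median log2 difference of 0.12 against -0.01 over all genes tested. Some cell type markers moved with genotype at an unadjusted p-value under 0.05 and 0 passed adjustment: 6 of 10 adipocyte, 2 of 4 luminal epithelium, 2 of 5 fibroblast and 1 of 5 myoepithelium markers were higher in Knockout libraries. Lower were 4 of 4 tested B cell, 2 of 5 tested T cell and 1 of 5 macrophage markers. The 7 skeletal muscle markers had a median log2 difference of 2.26, with 0 of them under an unadjusted 0.05. B cell markers summed to 0.808 to 13.8 CPM among Knockouts and 1.93 to 69.8 CPM among Wild-Types, and the part of these markers in the clock gene values was not tested.

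**Figure D1:**
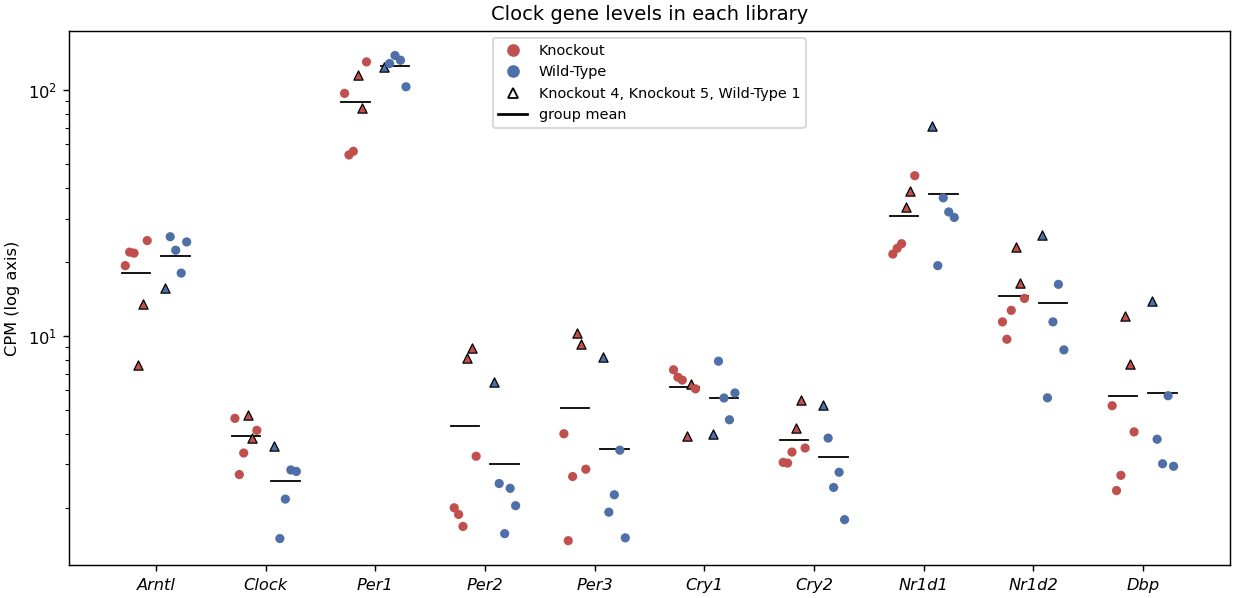
Level of each clock gene (CPM, log axis) in the 6 Knockout and 5 Wild-Type libraries, with group means as bars and Knockout 4, Knockout 5 and Wild-Type 1 drawn as outlined triangles. The genotypes overlap in every gene, whereas the triangles lie at the top in Per2, Per3 and Dbp and at the bottom in Arntl.

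What set the libraries apart was another pattern. In Knockout 4, Knockout 5 and Wild-Type 1, Per2, Per3, Cry2, Nr1d2 and Dbp were all higher than in any of the other 8 libraries, and Arntl was lower than in any of them. That is 5 of the 10 members above and 1 below, where 1.29% of all genes tested had these 3 libraries all above and 1.09% all below the others. The 3 libraries were picked for their clock gene levels, so these counts are a description and carry no test. Both genotypes are represented among the 3.

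The activator gene Arntl (ENSMUSG00000055116, chromosome 7, 113207465 to 113314126, GRCm38) ranged from 7.61 through a median of 20.5 to 24.4 CPM in Knockout libraries. In Wild-Type 1 to 5 it was at 15.7, 25.3, 22.3, 18 and 24.1 CPM. The 3 lowest values were those of Knockout 4 at 7.61, Knockout 5 at 13.5 and Wild-Type 1 at 15.7 CPM. The Knockout mean was 18.1 ± 6.31 CPM (SD, n = 6) and the Wild-Type mean 21.1 ± 4.12 CPM (SD, n = 5), for a log2 difference of -0.22 ± 0.26 (SE; edgeR adjusted p = 0.763). Most Arntl reads, a median of 82.0% per library, were assigned to the transcript Arntl-201.

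Its partner Clock (ENSMUSG00000029238, chromosome 5, 76209868 to 76304792) ran from 2.73 through a median of 3.99 to 4.75 CPM in Knockout libraries. In Wild-Type 1 to 5 it was at 3.57, 1.5, 2.17, 2.85 and 2.81 CPM, on as few as 36 reads in a library. Wild-Type 1 was thus within the Knockout range and the other 4 Wild-Type values were near or below its lower end. The log2 difference was 0.59 ± 0.21 (SE; unadjusted p = 0.0146, edgeR adjusted p = 0.313). Its highest value, 4.75 CPM, was in Knockout 4, where Arntl was lowest.

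Of the Period genes, which encode repressors of the Arntl and Clock pair, Per1 did not stand apart in the 3 libraries and the other two did. Per1 (ENSMUSG00000020893, chromosome 11, 69095217 to 69109960) ranged from 54.4 through a median of 90.5 to 130 CPM in Knockout libraries, and was at 124, 128, 138, 132 and 103 CPM in Wild-Type 1 to 5. Knockout 2 and Knockout 3, at 54.4 and 56.3 CPM, were the lowest, while Knockout 6 at 130 CPM was inside the Wild-Type range. The log2 difference was -0.48 ± 0.21 (SE; unadjusted p = 0.0429, edgeR adjusted p = 0.390). Knockout 4, Knockout 5 and Wild-Type 1 were at 115, 84.3 and 124 CPM, inside the range of 54.4 to 138 CPM of the other 8 libraries.

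Per2 (ENSMUSG00000055866, chromosome 1, 91415982 to 91459324) fell into separate levels. It was at 8.12, 8.89 and 6.51 CPM in Knockout 4, Knockout 5 and Wild-Type 1, and between 1.57 and 3.24 CPM in the other 8 libraries. Per3 (ENSMUSG00000028957, chromosome 4, 151003652 to 151044665) did the same, at 10.3, 9.29 and 8.19 CPM against 1.47 to 4.00 CPM. The highest library exceeded the lowest 5.66-fold in Per2 and 7.01-fold in Per3, on 50 to 270 and 43 to 342 reads per library. With such levels inside each genotype, the log2 differences of 0.51 ± 0.55 for Per2 and 0.55 ± 0.59 for Per3 were smaller than their own SE (edgeR adjusted p = 0.744 and 0.739).

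Among the Cryptochromes, the partners of the Period proteins, Cry1 and Cry2 went different ways. Cry1 (ENSMUSG00000020038, chromosome 10, 85131700 to 85185064) was lowest in Knockout 4 and Wild-Type 1, at 3.91 and 3.99 CPM, but reached 6.35 CPM in Knockout 5, within the 4.56 to 7.89 CPM of the other 8 libraries. Cry2 (ENSMUSG00000068742, chromosome 2, 92403646 to 92434043) was at 4.21, 5.51 and 5.22 CPM in Knockout 4, Knockout 5 and Wild-Type 1 and at 1.79 to 3.84 CPM in the others. Between genotypes the log2 differences were 0.15 ± 0.19 (SE) for Cry1 and 0.23 ± 0.26 (SE) for Cry2, with edgeR adjusted p-values of 0.780 and 0.745.

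Nr1d1 and Nr1d2, the REV-ERB genes, were both highest in Wild-Type 1. Nr1d1 (ENSMUSG00000020889, chromosome 11, 98767932 to 98775333) was at 71.2 CPM there, at 33.4 and 38.8 CPM in Knockout 4 and Knockout 5, and at 19.3 to 44.8 CPM in the other 8 libraries, so that only Wild-Type 1 stood out. Nr1d2 (ENSMUSG00000021775, chromosome 14, 18204054 to 18239127) was at 25.8 CPM in Wild-Type 1 and at 22.9 and 16.4 CPM in Knockout 4 and Knockout 5. Its next value was 16.2 CPM in Wild-Type 4, close to Knockout 5, and the lowest was 5.6 CPM in Wild-Type 2. The genotypes differed by -0.30 ± 0.32 (log2, SE) in Nr1d1 and 0.10 ± 0.36 in Nr1d2 (edgeR adjusted p = 0.741 and 0.935). The sign for Nr1d1 turned, to 0.06, without Wild-Type 1. The coding part of Nr1d1 overlaps that of Thra on the opposite strand, and 9.52% of its 31-base words occur there reversed. How many of its reads could come from Thra, had strand been ignored in counting, was not tested.

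The output gene Dbp (ENSMUSG00000059824, chromosome 7, 45705088 to 45710203) ranged from 2.35 through a median of 4.63 to 12.1 CPM in Knockout libraries. In Wild-Type 1 to 5 it was at 13.8, 3.80, 3.02, 5.71 and 2.95 CPM. Wild-Type 1, Knockout 4 and Knockout 5, at 13.8, 12.1 and 7.71 CPM, held the 3 highest values. The Knockout mean of 5.7 ± 3.71 CPM (SD, n = 6) was close to the Wild-Type mean of 5.86 ± 4.59 CPM (SD, n = 5), and the log2 difference was -0.04 ± 0.53 (SE; edgeR adjusted p = 0.984). Without Wild-Type 1 it was 0.56. Exons of Sphk2 overlap Dbp on the opposite strand, outside the coding part of Sphk2, and 18.7% of the 31-base words of Dbp occur there reversed. Exons of non-coding genes on the opposite strand cover 149 of the 1776 coding bases of Cry2 and 33 of the 1899 of Arntl. Shared words were searched in protein-coding genes only. The part of such overlaps in the read counts was not tested.

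**Figure D2:**
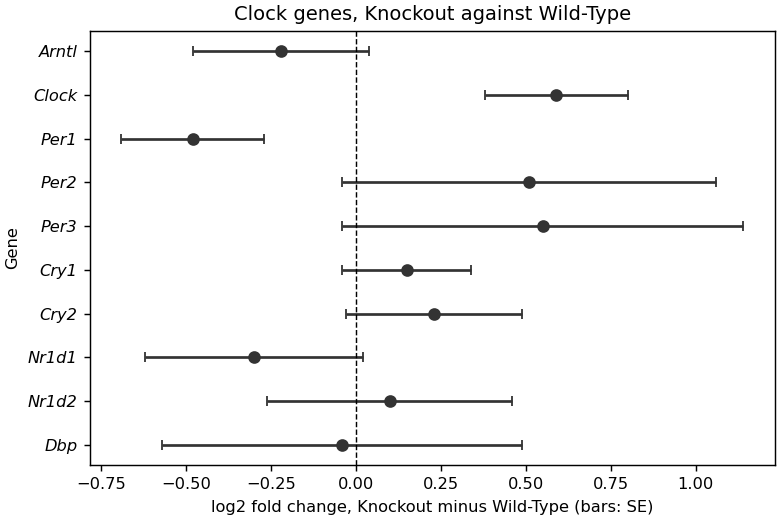
Difference between Knockout and Wild-Type libraries for each clock gene (log2 fold change, bars show the SE). Per2, Per3 and Dbp have the widest bars, at 0.55, 0.59 and 0.53, and Clock at 0.59 and Per1 at -0.48 lie farthest from 0 relative to their SE.

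The spread behind these wide errors was measured by the biological coefficient of variation, the variation between libraries of the same genotype beyond counting noise. It was 64.8% for Per3, 61.0% for Per2, 58.8% for Dbp, 40.6% for Nr1d2 and 36.4% for Nr1d1. At their abundance the trend over all genes was 26.9%, 28.3%, 24.5%, 19.2% and 18.2%. Set against the trend, 7 of the 10 members were above the 90th percentile of all genes tested, with Per3 and Dbp both at percentile 97.6, Arntl at 94.4 and Per1 at 91.2. Cry2, Cry1 and Clock were lower, at percentiles 83.1, 76.5 and 69.5. The median ratio to the trend was 1.82 for the members and 0.717 for all genes tested.

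For some members much of this spread lay in the 3 libraries named above. Fitted on the other 8 libraries, the coefficient fell to 33.3% for Per3, 25.5% for Per2, 30.5% for Dbp and 14.2% for Arntl. It did not fall for Per1, at 25.6% with all libraries and 28% with 8, and hardly moved for Clock, at 24.9% and 24.7%. Nr1d1, Nr1d2 and Per1 were still above the 90th percentile, at 94.5, 93.5 and 93.4. Leaving out extreme libraries lowers a spread by construction.

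**Figure D3:**
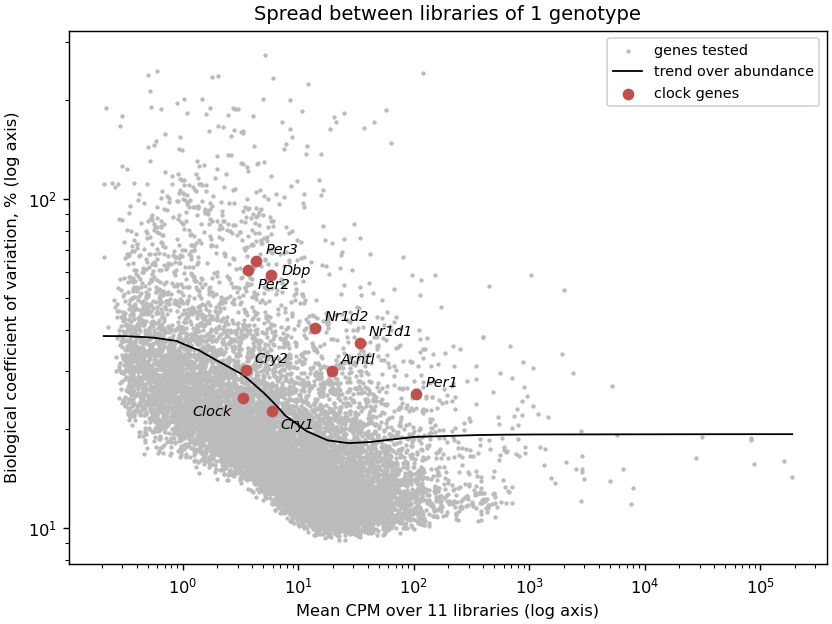
Variation between libraries of the same genotype (biological coefficient of variation in %, log axis) against mean abundance (CPM, log axis) for all genes tested in grey, with the trend as a line and the 10 clock genes in red. Per3, Per2 and Dbp lie well above the trend, at 64.8%, 61.0% and 58.8%, and Clock and Cry1 lie slightly below it.

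Genes of opposite phase were then compared across the libraries. For Arntl and Dbp, Pearson's r of log2 CPM over the 11 libraries was -0.80 (permutation test, two-sided, p = 0.00226; adjusted over the 45 combinations of members, 0.0145) and Spearman's rho was -0.68 (permutation p = 0.0253, adjusted 0.0875). Without Knockout 4 and Knockout 5, the libraries farthest from the median of Arntl, r was still -0.80. Within the Knockout libraries alone r was -0.89 (exact permutation test, n = 6, p = 0.0125), and after centring each genotype on its mean it was -0.84. No value is given for the 5 Wild-Type libraries alone, as correlations were computed over at least 6. Over the 8 libraries other than Knockout 4, Knockout 5 and Wild-Type 1, r was -0.53 (exact permutation test, n = 8, p = 0.18). The relation was thus not past the threshold without these 3, which were picked for their clock gene levels.

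**Figure D4:**
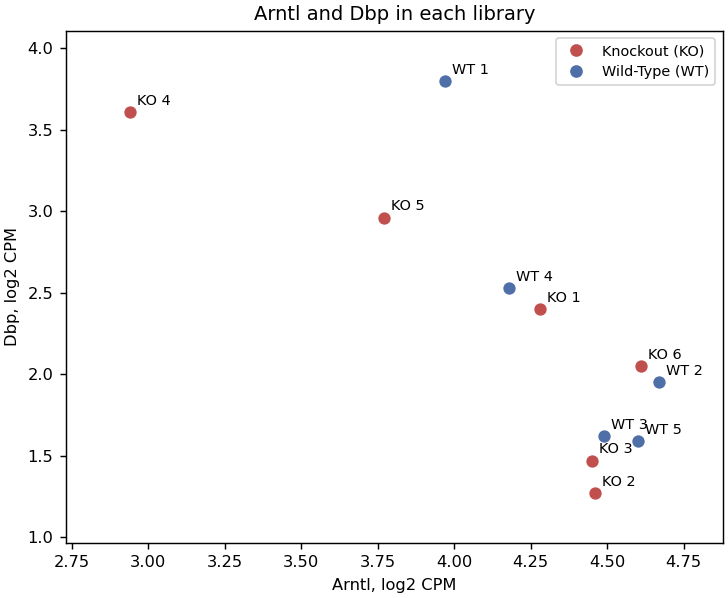
Arntl against Dbp (both log2 CPM) in each of the 11 libraries, Knockout in red and Wild-Type in blue. Knockout 4, Knockout 5 and Wild-Type 1 lie at low Arntl and high Dbp, and Wild-Type 4 and Knockout 1 fall between them and the remaining 6.

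Per2 and Per3 fell into separate levels, so no r over all libraries is printed for them, only counts and places in a ranking of genes by likeness to Dbp and Arntl. Their combinations count among the 45 over which p-values were adjusted. Of the 28 combinations of the other 8 members, 10 had an adjusted permutation p-value under 0.05 for Pearson's r, 5 positive and 5 negative, but only 3 for Spearman's rho: Nr1d2 with Arntl, with Nr1d1 and with Dbp. Of the 10, Cry1 and Dbp went from r = -0.70 to -0.17 without Knockout 4 and Wild-Type 1, the libraries farthest from the median of Cry1. Besides Arntl and Dbp, negative relations included Arntl with Nr1d2, at r = -0.73 and rho = -0.79 (permutation p = 0.00976 and 0.00574, adjusted 0.0338 and 0.0337), and -0.82 without Knockout 4 and Knockout 5. Cry1 and Nr1d2 had r = -0.83 and rho = -0.72 (permutation p = 0.00134 and 0.0159, adjusted 0.0123 and 0.0658), and -0.62 without Knockout 4 and Wild-Type 1. Dbp and Nr1d2 had r = 0.79 and rho = 0.78 (permutation p = 0.00372 and 0.00607, adjusted 0.0181 and 0.0337), with 0.88 without Wild-Type 1 and Wild-Type 2, but 0.33 over the 8 libraries (exact permutation test, n = 8, p = 0.441). Arntl and Nr1d1, a gene and its repressor, had r = -0.31 and rho = -0.35 (permutation p = 0.343 and 0.285, adjusted 0.407 and 0.370), and -0.51 without Knockout 4 and Knockout 5. By Pearson's r over the 8 libraries, 0 of all 45 combinations passed and 1 had an unadjusted p-value under 0.05. It was that of Per3 and Dbp at r = 0.79 (exact permutation test, n = 8, p = 0.0229, adjusted 0.550). By Spearman's rho, p-values over the 8 were not adjusted. Those under 0.05 were of Cry1 with Nr1d1 at -0.83, Per3 with Dbp at 0.81 and Clock with Per3 at 0.74 (exact permutation test, n = 8, p = 0.0154, 0.0218 and 0.0458).

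A score that set the mean of Nr1d1, Nr1d2, Dbp, Per1, Per2 and Per3 against the mean of Arntl, Clock and Npas2 (centred log2 CPM) summarises the libraries. It was 1.68 in Knockout 4, 1.13 in Knockout 5 and 1.39 in Wild-Type 1. The other Knockout libraries lay between -1.08 and -0.27 and the other Wild-Type libraries between -0.60 and -0.10. The group medians of -0.38 in Knockout and -0.41 in Wild-Type were close. Knockout 2, at -1.08, was at the opposite end from Knockout 4. The score reuses genes by which the 3 libraries were picked, so setting them apart restates the pick. Clock stands on the Arntl side of the score, though its r with Arntl was -0.58 over the 11 libraries. Per1 stands on the Dbp side, with an r of 0.40 with Dbp. Whether glands were collected at different times of day was not tested, since no collection time is given.

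**Figure D5:**
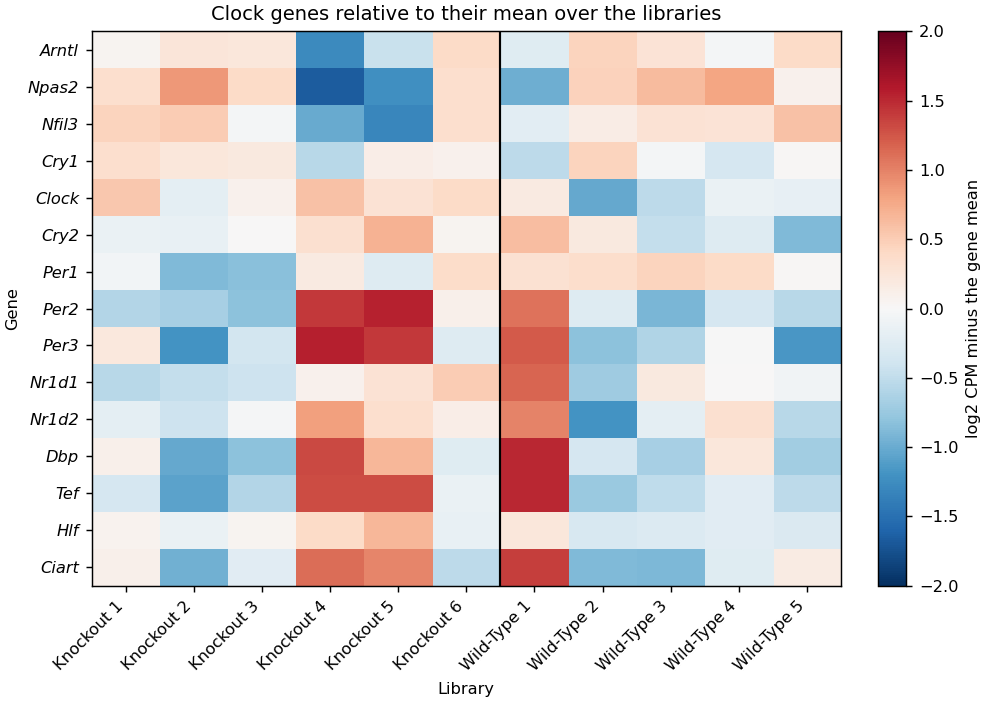
Levels of clock genes in each library relative to the gene's mean (log2 CPM, red higher, blue lower), with Knockout libraries left of the line and Wild-Type libraries right of it. Arntl, Npas2 and Nfil3 are blue and Per2, Per3, Dbp, Tef and Ciart red in Knockout 4, Knockout 5 and Wild-Type 1.

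Other clock factors followed the same division. Tef, which encodes a relative of the Dbp protein, was at 13.0, 13.0 and 14.9 CPM in Knockout 4, Knockout 5 and Wild-Type 1 and at 2.46 to 4.72 CPM in the other 8 libraries. Ciart, the gene of a repressor of the clock, was at 2.35, 2.13 and 2.84 CPM against 0.512 to 1.19 CPM. Hlf, another relative of Dbp, was at 11.7, 14.4 and 10.5 CPM against 7.18 to 9.44 CPM. Npas2, which stands in for Clock, was lower in these libraries, at 2.92, 3.97 and 4.76 CPM against 9.90 to 17.2 CPM. Nfil3, whose protein opposes Dbp at D-boxes, was at 6.10, 4.96 and 10.6 CPM against 12.0 to 18.6 CPM.

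In all, 5 of the 11 tested genes of this list stood outside the other 8 libraries, 3 above and 2 below, and 6 did not, where 1.29% of all genes tested were above and 1.09% below. As the 3 libraries were picked for their clock gene levels, this too is a description. Among the 6 was Bhlhe41, the gene of an E-box repressor, at 10.4 to 14.5 CPM against 2.30 to 19.8 CPM. Rorb had too few reads to test.

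Between genotypes, edgeR called 0 of these 11 genes at an adjusted 0.05, and 1 had an unadjusted p-value under 0.05, where 0.055% and 12.4% of all genes tested did. It was Bhlhe40, the gene of another E-box repressor, with a Knockout mean of 10.4 ± 0.36 CPM (SD, n = 6), a Wild-Type mean of 14.8 ± 3.2 CPM (SD, n = 5) and a log2 difference of -0.51 ± 0.13 (SE; edgeR adjusted p = 0.228). Wild-Type 2, at 9.31 CPM, was below every Knockout library. Hlf had a log2 difference of 0.34 ± 0.16 (SE; edgeR adjusted p = 0.416). Those of Npas2, Nfil3, Tef, Ciart and Bhlhe41 were -0.22, -0.26, 0.18, 0.10 and 0.66, with edgeR adjusted p-values from 0.579 to 0.955. Of the 7 tested genes for turnover of clock proteins, 0 passed and 0 were under an unadjusted 0.05, against the same 0.055% and 12.4%. Btrc and Gsk3b had the smallest p-values there, with log2 differences of 0.23 ± 0.11 and 0.21 ± 0.10 (edgeR adjusted p = 0.416 and 0.430).

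Of the 8 clock-controlled output genes, 0 passed and 2 had an unadjusted p-value under 0.05, against 0.055% and 12.4% of all genes tested. Noct, which encodes an enzyme named nocturnin, had a Knockout mean of 2.95 ± 0.61 CPM (SD, n = 6) and a Wild-Type mean of 2.02 ± 0.323 CPM (SD, n = 5) (log2 difference 0.55 ± 0.16 SE; edgeR adjusted p = 0.270). Marveld1 differed by 0.64 ± 0.24 (log2, SE; edgeR adjusted p = 0.341). The median log2 difference over these 8 genes was -0.08, against -0.01 over all genes tested.

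Which other genes resembled Dbp and Arntl was read from Pearson's r over the 11 libraries, among 11119 genes with a mean of at least 1 CPM, as a description with no p. Of the 9 other members, 3 (Per3, Per2 and Nr1d2) had r of at least 0.7 with Dbp, against 1.38% of all genes, and 2 (Arntl and Cry1) had r of at most -0.7, against 1.12%. Cry2 missed the limit at 0.696. In rank, Per3 was number 2 and Per2 number 8 from the top, and Arntl number 26 from the bottom. Outside the members, the genes most like Dbp were Tef (rank 1), Usp2 at 0.91, Ubr7 at 0.90, Prpf6 at 0.89 and Polr3e at 0.88. Usp2, which encodes a deubiquitinase, was at 9.14, 8.70 and 12.4 CPM in Knockout 4, Knockout 5 and Wild-Type 1 and at 3.72 to 7.06 CPM in the other 8. The genes most opposed to Dbp were Nol4l at -0.93, C2cd4b at -0.92, Txnrd2 at -0.89, Eif4g3 at -0.86 and Cdc26 at -0.85. Over the 8 libraries without those 3, r with Dbp was 0.75 for Tef, 0.72 for Usp2, 0.85 for Prpf6, -0.83 for Nol4l and -0.57 for C2cd4b. Of the members past a limit above, Per3 was at 0.79 there, Per2 at 0.53, Arntl at -0.53, Nr1d2 at 0.33 and Cry1 at -0.26. Ciart, number 9 from the top over the 11 libraries, was at 0.37 over the 8, and Npas2, number 13 from the bottom, at -0.03. Hlf and Nfil3 went from 0.69 and -0.68 to 0.06 and -0.02.

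Most like Arntl were Polb at 0.91, Eif4g3 and Ptpn18 at 0.88, C2cd4b at 0.87 and Wdr83 at 0.86. Of the 9 other members, 0 had r of at least 0.7 with Arntl, against 1.03% of all genes, and 4 (Per2, Per3, Nr1d2 and Dbp) had r of at most -0.7, against 0.872%. Npas2 was number 9 from the top and Nfil3 number 21. The most opposed outside the members were Zscan26 and Cdca7 at -0.89, Utp18 at -0.87, and Det1 and Prpf6 at -0.86. Over the 8 libraries these values were smaller in size, such as 0.71 for Polb, 0.44 for Eif4g3 and -0.24 for Det1. Those of Npas2 and Per2 turned sign, to -0.44 and 0.23, and that of Nfil3 was 0.00. Per3, Nr1d2 and Dbp stayed negative, at -0.65, -0.64 and -0.53.

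Markers of cell types and of hormone or stress response were compared as sums over each list, a coarser measure than the gene by gene values above. By this measure the sums of the Period, Cryptochrome, REV-ERB and other clock factor lists did not set the 3 libraries apart either, while that of Arntl and Clock was below, at 12.4, 17.4 and 19.2 CPM against 20.9 to 28.5 CPM. For 0 of the 10 cell type lists was the summed level in Knockout 4, Knockout 5 and Wild-Type 1 above, or below, that of all the other 8. Adipocyte markers summed to 1660, 1583 and 1479 CPM against 1043 to 1943 CPM, and secretory epithelium to 477042, 471188 and 553487 CPM against 340110 to 593473 CPM. Skeletal muscle markers differed widely, at 2.77, 7.16 and 199 CPM against 1.54 to 2074 CPM, the highest in Knockout 1. B cell markers, at 2.98, 0.808 and 1.93 CPM, were at the low end of the 1.88 to 69.8 CPM of the others.

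Glucocorticoid target genes were measured because Per1 also responds to that hormone. Their sum was 402 CPM in Wild-Type 1, the highest of all, but 209 and 256 CPM in Knockout 4 and Knockout 5, within the 165 to 278 CPM of the others. Of these 8 genes, 0 passed between genotypes in edgeR and 1 had an unadjusted p-value under 0.05, against 0.055% and 12.4% of all genes tested. It was Sgk1, with a Knockout mean of 26.2 ± 10.7 CPM (SD, n = 6) and a Wild-Type mean of 45.3 ± 14.1 CPM (SD, n = 5) (log2 difference -0.79 ± 0.30 SE; edgeR adjusted p = 0.350). The next smallest p-value was that of Klf9, at -0.35 ± 0.18 (edgeR adjusted p = 0.457). Immediate early genes, which respond within minutes to many stimuli, summed to 821, 586 and 1016 CPM in the 3 libraries against 507 to 1329 CPM, and 0 of 8 passed or were under an unadjusted 0.05, beside the same shares of all genes. The 2 with the smallest p-values were Atf3 at 0.56 ± 0.68 and Ier2 at 0.15 ± 0.28 (log2, SE; edgeR adjusted p = 0.773 and 0.860).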

How the data were processed

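The authors deposited 1 table per library with the estimated count, TPM and effective length of each transcript, per the file headers, and 1 table of normalized gene values, a signal that the authors had scaled between libraries. Salmon 1.3.0, DESeq2 1.28.1 and the build GRCm38.p6 are named in the submitters' processing notes. Options for strand and bias are not given in the sources used here, and libraries were made with a directional kit per the labels' protocols. Listed lengths are those of coding sequences for the members, so untranslated regions were not counted.

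Estimated counts were summed per gene with GENCODE M21 (752 transcripts unmatched, 0.195% to 0.265% of reads), rounded, filtered with filterByExpr (12716 genes) and tested with edgeR 4.0.16 (TMM, quasi-likelihood F test, robust; Benjamini-Hochberg over all genes tested). Log2 CPM used a prior count of 2, and correlations 100000 permutations. DESeq2 1.42.0 and limma 3.58.1 (pseudocount 1 on the authors' signal) served as alternatives. The tests were checked on simulated data. Groups and replicate numbers came from titles. Nothing says that libraries with the same number share a litter or day. Each p-value sets a genotype difference, or a correlation, against the variation between these libraries. Members and lists were chosen with earlier results of these data known. The genes named are the members, 7 fixed clock factors (1 is not reported here), the 2 smallest p-values of each list, and the 5 genes most like and most unlike Dbp and Arntl. Prediction-only names were passed over.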

Additional observations from a re-analysis of the deposited data

Results flagged for a closer look

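A search of 54 sets of values for 1 library lying far outside its own genotype gave 10, while chance alone gives about 1 in 20, or 2.7. Many of the sets are clock genes that move together, or the score built from them. Wild-Type 1 had also been picked for its clock gene levels, so 10 against 2.7 is no test. Of the 10, 7 concern Wild-Type 1, set against the other 4 Wild-Type libraries. Per2 was at 6.51 CPM there, against 1.57 to 2.51 CPM. Per3 was at 8.19 CPM, against 1.51 to 3.43 CPM, and Dbp at 13.8 CPM, against 2.95 to 5.71 CPM. Tef was at 14.9 CPM, against 3.09 to 4.46 CPM, Hlf at 10.5 CPM, against 7.18 to 7.71 CPM, and Ciart at 2.84 CPM, against 0.534 to 1.19 CPM. The score of opposite-phase genes was 1.39, against -0.60 to -0.10. These genes move together, so the 7 values are not independent.

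Knockout 4 and Knockout 5, being 2 libraries on the same side, each hide the other from such a search. Cry1 was the exception, at 3.91 CPM in Knockout 4 against 6.09 to 7.28 CPM in the other Knockout libraries. The remaining values lay outside the clock genes' division of the libraries. Noct was at 4.16 CPM in Knockout 2, against 2.53 to 2.94 CPM, and Ier2, an immediate early gene, was at 171 CPM in Knockout 6, against 58.3 to 98.1 CPM.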

How the results depend on the processing

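The count of clock genes past the threshold was 0 under all 10 alternatives with edgeR, DESeq2 or limma and in all 11 fits that left out 1 library. The count over all genes, 7 by default, was 146 with DESeq2, 1 over the 8 libraries without Knockout 4, Knockout 5 and Wild-Type 1 (an alternative chosen after seeing the data), and 0 to 28 with 1 library left out. With the replicate number as a block it was 0, as it was over the same 10 libraries without the block. Deviations of same-numbered libraries from their genotype means correlated at -0.223 to 0.187, and only number 3 correlated best with its own number. Such correlations cannot tell whether libraries of the same number share a litter or day. The log2 difference of Dbp, -0.04, was 0.03 on the authors' normalized values, 0.06 with the block and 0.04 over the same libraries without it, and -0.41 to 0.56 with 1 library left out. That of Nr1d1 ran from -0.46 to 0.06 and that of Nr1d2 from -0.10 to 0.47 with 1 library left out. The other 7 members kept their direction throughout, but with 1 library left out Per2 ran from 0.17 (without Knockout 5) to 1.01 and Per3 from 0.22 (without Knockout 4) to 1.15 (both highest without Wild-Type 1), Cry2 from 0.08 to 0.48, Cry1 from 0.05 to 0.30 and Arntl from -0.32 to -0.06 (without Knockout 4). Over the 8 libraries the differences were 0.06 for Per2, 0.28 for Per3, -0.03 for Arntl and -0.06 for Nr1d1. Arntl and Dbp correlated at -0.88 to -0.78 with 1 library left out, and at -0.53 (exact permutation test, p = 0.18) over the 8 libraries. Per2, Per3 and Clock rest on as few as 50, 43 and 36 reads in a library, which limits their precision.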
